A study of Mus musculus with 103 samples.

Results

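The comparison set nascent RNA 1 d after the removal of DRB against nascent RNA during DRB, in quiescent mouse embryonic fibroblasts. It was defined by 2 of the 103 samples of the series, 1 library in each condition, taken as 2 columns of the same global run-on sequencing (GRO-seq) table. All cells were Ctcf(fl/fl) Wapl(fl/fl) fibroblasts of strain C57BL/6 from E13.5 embryos, and both alleles of each gene were floxed. In both conditions Cre was delivered by adenovirus (Adeno-Cre) for 4 h, the cells rested for 10 d, and DRB was then given for 3.5 h. The second condition had 1 further day without DRB. The cells of the comparison columns were Adeno-Cre cells without DRB and untreated floxed cells, each deposited as a pool of 2 libraries from 2 clones. The labels gave no clone for the DRB and the removal library. A column of cells kept for the same further day without ever meeting DRB was not analysed here, so a day in culture and DRB removal cannot be told apart. The Adeno-Cre cells carried the deletion too, so only differences from the untreated column set floxed against deleted cells. The untreated cells had no Adeno-Cre, so in those differences the deletion and exposure to Adeno-Cre cannot be told apart.

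DRB is a nucleoside analog that inhibits Cdk9, the kinase of the elongation factor P-TEFb. P-TEFb releases RNA polymerase II from its pause just downstream of the start site, and without it polymerases already in the gene body run to the end while few new ones follow. The block is reversible, and the wave of polymerases that starts on removal needs longer to cross a long gene than a short one. GRO-seq lets engaged polymerases extend in isolated nuclei with a bromouridine nucleotide, so it reads polymerases on the gene rather than accumulated mRNA.

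Values are TPM, shares of a library's transcripts divided by gene length, and so allow levels to be compared between genes. Every column added up to the same total, and only changes relative to other genes can be seen, not a loss or gain of all transcription. A gene counted as higher or lower when log2(TPM + 1) differed by at least 1, a 2-fold difference, and was considered when TPM reached 2 in at least 1 of the columns compared. Adding 1 makes the ratio of a low gene smaller than that of its TPM. With 1 library in each condition there was no replicate check, no test and no p-value, and every difference below is between those libraries. Reads recovered from the values gave at least 988065 reads in genes during DRB and at least 6.02 M after removal. A single read in a gene of 1 kb was therefore worth 0.721 TPM during DRB and 0.172 TPM after removal. Ratios of a gene's TPM are given with exact 95% intervals from these reads, which cover counting error only.

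The fibroblast identity of the libraries was examined first. Of 14 fibroblast markers, 11 passed the floor, and none of the 8 endothelial and none of the 8 epithelial markers did. A single neural marker, Sox2 (4.70 and 4.62 TPM), and 1 skeletal muscle marker, Acta1, passed. The endothelial markers summed to 1.11 TPM during DRB and 1.26 TPM after removal, and the epithelial ones to 0.392 and 0.881 TPM. Of 12 macrophage markers 4 passed, and their list summed to 10.4 TPM during DRB and 29.8 TPM after removal, against 34.5 TPM in Adeno-Cre cells. Most of the rise in this sum came from 1 gene, the macrophage antigen Cd68, at 3.41 and 15.7 TPM. Lyz2 (0.914 and 4.97 TPM) and Tyrobp (0.570 and 2.22 TPM) were also higher after removal. Ctss (0.511 and 0.487 TPM) and Laptm5 (0.474 and 0.369 TPM) were lower. The defining leukocyte gene Ptprc was at 0.160 and 0.241 TPM. The part of such cells in the results was not tested. Nascent RNA across Ctcf was 4.91 TPM in untreated cells, 2.97 in Adeno-Cre cells, 1.60 during DRB and 2.16 after removal. Across Wapal, the table's symbol for Wapl, it was 8.05, 4.05, 2.19 and 4.19 TPM. These are whole-gene values, and which exons were deleted is not given in the sources used here. Both genes fell in the longest of the 4 length classes described below, whose median was 6.23 TPM in untreated cells and 2.99 TPM in Adeno-Cre cells. The falls across Ctcf and Wapal were no larger than that of this class, so they do not check the deletion.

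After removal, the profile lay much nearer to that of cells that had not met DRB. During DRB, 62.1% of 7906 genes lay within 2-fold of Adeno-Cre cells, 16.8% were higher (1329 genes) and 21.1% lower (1665 genes). After removal, 88.3% of 8162 genes lay within 2-fold, 6.05% were higher (494 genes) and 5.65% lower (461 genes). The median absolute log2 difference from Adeno-Cre cells was 0.78 during DRB and 0.31 after removal. Both comparisons share the Adeno-Cre column.

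**Figure D1:**
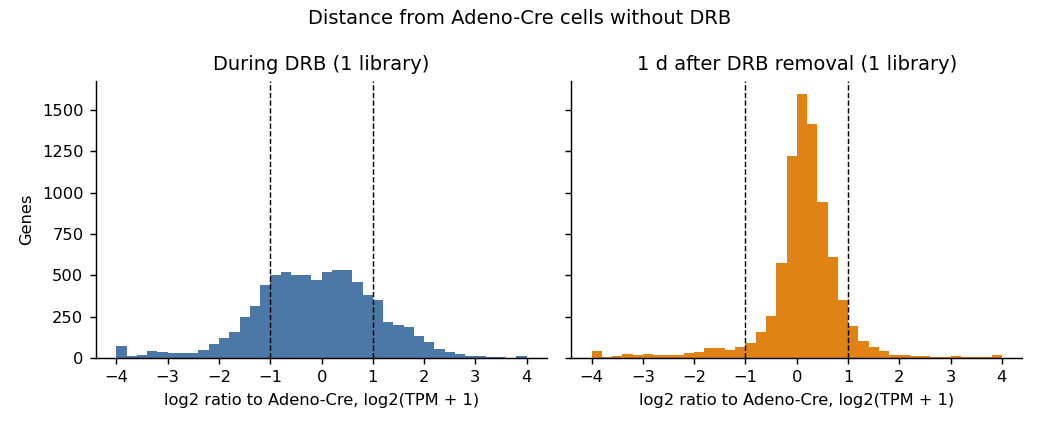
Histograms of the log2 ratio of TPM + 1 to Adeno-Cre cells, for genes with at least 2 TPM in either column, during DRB (left) and 1 d after removal (right). Dashed lines mark 2-fold, values beyond 4 either way are drawn in the end bins, and the right histogram is narrower, with 88.3% of genes inside the lines against 62.1%.

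Set directly against the DRB library, 1360 of 7693 genes (17.7%) were at least 2-fold higher after removal and 563 (7.32%) at least 2-fold lower. The median log2 ratio was 0.20, with quartiles at -0.37 and 0.80. This split follows the scaling and the floor. With a floor of 10 TPM, the counts were 272 higher and 436 lower. When the columns were scaled by the median of their ratios, the median moved by -0.61 on the log2 scale and the counts became 486 higher and 1385 lower. Medians of lists and length classes are therefore to be read against the 0.20 of all genes. The same scaling lowers the log2 ratio of TPM after removal by 0.56 for every gene, so small positive values below turn negative under it. The higher genes had a median of 0.894 TPM during DRB and 4.36 TPM after removal, and 3.83 TPM in Adeno-Cre cells. That median during DRB was below the floor of 2 TPM, so most higher genes passed it only through the removal library. Of them 135 were at 0 during DRB. Passing that way favours a higher ratio. The lower genes went from a median of 18.4 TPM during DRB to 6.32 TPM, with 4.28 TPM in Adeno-Cre cells. The higher genes spanned a median of at least 20.7 kb and the lower genes of at least 5.49 kb. In polyadenylated RNA of Adeno-Cre cells, measured once, median levels were 9.92 RPKM for the higher genes, 19.0 RPKM for the lower genes and 13.6 RPKM for all genes considered.

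The median log2 ratio rose with gene length, mainly in the longest genes. Spans were recovered from the size of a single read in the TPM values, and are lower bounds, since some are a whole-number fraction of the true span. Genes were put in 4 classes of equal size by span. In the shortest class (up to 4.69 kb) the median log2 ratio was -0.06, with 14.7% of genes higher and 13.1% lower. The middle classes had medians of -0.04 and 0.08. In the longest class (26.6 to 491 kb) the median was 0.70, 29.0% of genes were higher and 0.855% were lower. The median level of this class during DRB was 1.78 TPM, below the floor of 2 TPM. Many of its members thus passed the floor only through the removal library.

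With 10 classes, the longest held 749 genes of at least 57.3 kb, with a median log2 ratio of 0.95, 45.5% of them higher and 0 lower. Their median level was 6.63 TPM in untreated cells, 2.98 in Adeno-Cre cells, 1.17 during DRB and 3.03 after removal. The level after removal was thus back at the Adeno-Cre level but below the untreated one. The median during DRB was below the floor of 2 TPM, so most of these genes passed it only through the removal library. Passing that way favours a higher ratio, and no value without the floor is given for the length classes. The shortest of the 10 classes had medians of 8.03, 11.2, 18.3 and 15.7 TPM in the same order, above the Adeno-Cre level both during DRB and after removal. Genes in the shortest of the 4 classes together held 66.3% of the column total during DRB and 61.3% after removal. Genes in the longest of the 4 classes held 7.26% of the total in Adeno-Cre cells, 4.26% during DRB and 7.28% after removal. The values are shares, so a fall in one class raises the others. The part of this in the levels of short genes was not tested.

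**Figure D2:**
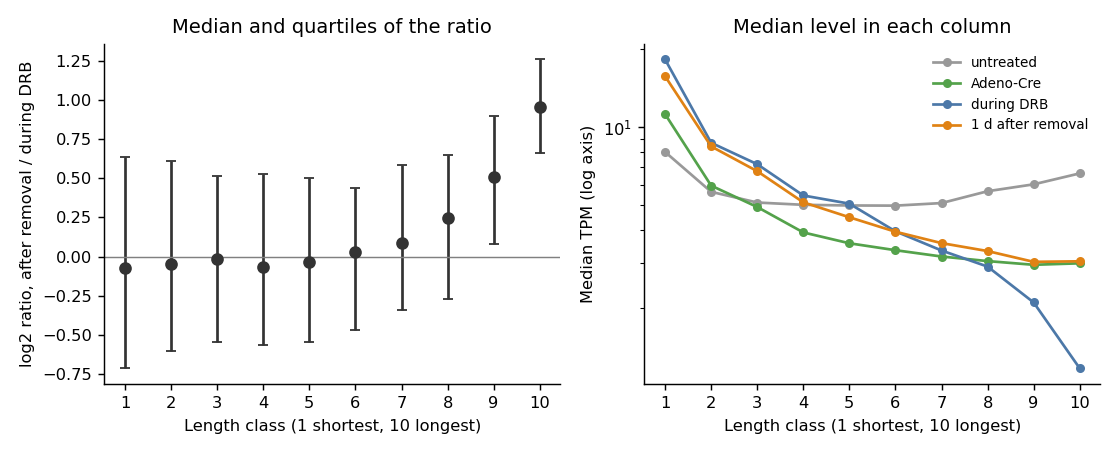
Left, median (points) and quartiles (bars) of the log2 ratio after removal against during DRB in 10 classes of genes by recovered span. Right, the median TPM of the same classes in 4 columns on a log axis. The ratio stays near 0 in the 7 shortest classes and reaches 0.95 in the longest, where the DRB line drops to 1.17 TPM and the removal line meets the Adeno-Cre line.

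The genes with the longest recovered spans are described one by one. Cacna2d1, Pcdh7 and Dnm3, given next, each passed the floor of 2 TPM only through the removal library. For them a higher value after removal was fixed by the floor and is no separate result. Cacna2d1, a calcium channel subunit gene of at least 440 kb, had 3.38 TPM in Adeno-Cre cells, 0.208 during DRB and 2.28 after removal, with a counting interval of the ratio from 9.19 to 13.2. Pcdh7, a protocadherin gene of at least 414 kb, had 2.30, 0.273 and 2.03 TPM. Dnm3, which encodes a dynamin, was the longest at 491 kb and moved less, from 0.895 to 2.33 TPM, with 1.93 TPM in Adeno-Cre cells. Of 47 genes listed as long, 13 passed the floor, most of them only through the removal library, since their median was 0.849 TPM during DRB. Of these 10 (76.9%, against 17.7% of all genes) were at least 2-fold higher and none lower. The median log2 ratio was 1.16, or 0.63 without the floor. Lpp, a focal adhesion adaptor, went from 1.303 to 6.81 TPM, and Ttc28, the member that moved least, from 2.33 to 3.88 TPM.

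Next came a list of actin cytoskeleton and contractile genes, many of them known targets of serum response factor (SRF), a transcription factor that senses free actin through its partners. All 18 passed the floor and all 18 were at least 2-fold higher after removal, against 17.7% of all genes. The median log2 ratio was 2.14, with or without the floor. Actg2, Cnn1, Filip1l, Tpm2 and Myl9 were below 2 TPM during DRB and passed the floor only through the removal library. For these a higher value was fixed by the floor. The summed level of the 18 genes was 615 TPM in Adeno-Cre cells, 141 during DRB and 645 after removal. Their median span was at least 12.5 kb, near the 11.6 kb of all genes considered, and their median lay 2.03 above those of their own length classes. Under the median-of-ratios scaling their median was 1.65.

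Vcl (vinculin, which links integrins to actin) went from 2.60 to 25.7 TPM, with 19.0 TPM in Adeno-Cre cells. Acta2 (smooth muscle actin) went from 13.8 to 86.2 TPM, with 80.3 TPM in Adeno-Cre cells. Both ended a little above the Adeno-Cre level. Actb (cytoplasmic beta actin) went from 63.3 to 185 TPM and Tagln (transgelin) from 6.05 to 33.1 TPM. Actg1 (cytoplasmic gamma actin) stayed short of its Adeno-Cre level, at 7.48 TPM during DRB and 30.6 TPM after, with 85.1 TPM in Adeno-Cre cells. The smallest change was in Tln1 (talin), from 4.01 to 9.41 TPM.

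Promoter sequences of genes that moved together are shown from RefSeq on GRCm38.p6, from 250 bases before to 50 after the annotated start, 5′ to 3′ on the gene's strand. The table held promoters for 14 of the 18 contractile genes. The CArG box, the SRF binding motif, was searched on both strands, a choice made after the values were seen. It was present in promoters of 5 of the 14 genes, and in 31.3% of the list's 16 promoters against 1.63% of all 32851 promoters. The list was drawn up with known SRF targets in mind, so this share is no independent result. The box was in 3.25% of promoters of the genes at least 2-fold higher, 1.17% of those of the lower genes and 1.65% of those of all genes considered. None of 39 promoters of the extracellular matrix genes, described below, held it. Vcl (chr14:20929148-20929447, plus strand) and Myl9 (myosin regulatory light chain, chr2:156775214-156775513, plus strand) are shown as members with the box. Acta1 (skeletal muscle actin, chr8:123894726-123895025, minus strand), which was outside the list but among the 15 highest ratios, had both a CArG box and TATAAA. Capitals mark these motifs.

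Vcl: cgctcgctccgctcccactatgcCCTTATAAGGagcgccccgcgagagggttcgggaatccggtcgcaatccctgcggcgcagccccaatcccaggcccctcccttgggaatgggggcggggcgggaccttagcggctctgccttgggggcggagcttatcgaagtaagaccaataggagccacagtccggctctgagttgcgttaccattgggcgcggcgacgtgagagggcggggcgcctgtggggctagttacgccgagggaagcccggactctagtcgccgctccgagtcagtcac
Myl9: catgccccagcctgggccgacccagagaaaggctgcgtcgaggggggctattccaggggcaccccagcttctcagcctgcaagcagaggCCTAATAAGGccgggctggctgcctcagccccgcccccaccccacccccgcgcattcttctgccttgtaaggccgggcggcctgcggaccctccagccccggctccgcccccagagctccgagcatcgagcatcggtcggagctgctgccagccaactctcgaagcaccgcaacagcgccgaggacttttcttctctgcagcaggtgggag
Acta1: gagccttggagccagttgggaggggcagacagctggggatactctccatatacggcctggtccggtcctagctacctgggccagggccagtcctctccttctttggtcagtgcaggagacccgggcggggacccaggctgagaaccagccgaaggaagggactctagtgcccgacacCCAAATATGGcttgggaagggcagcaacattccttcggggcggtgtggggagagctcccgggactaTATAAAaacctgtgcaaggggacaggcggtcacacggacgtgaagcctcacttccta

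The core promoter element TATAAA, searched on both strands as were the others below, was in 10.4% of promoters of the higher genes, 5.66% of those of the lower genes and 7.49% of those of all genes considered. Among the remaining motifs, GGGCGG was in 64.1%, 59.2% and 64.7% in the same order, CCAAT in 36.3%, 42.2% and 39.0%, and CACGTG in 7.92%, 11.3% and 10.5%. TGANTCA was in 6.92%, 5.47% and 4.93%, and TGACGTCA in 2.09%, 4.30% and 3.62%. Promoters were matched for 949 of the 1360 higher genes, 447 of the 563 lower ones and 6051 of 7693 genes. A match describes the letters and not a bound site. Vim (chr2:13574061-13574360, plus strand), among the higher genes, carries TATAAA, marked in capitals, beginning at position -32 from the annotated start. Rpl34 (chr3:130730349-130730648, minus strand), among the lower genes, has no TATAAA, and its capitals mark GGGCGG read on the opposite strand.

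Vim: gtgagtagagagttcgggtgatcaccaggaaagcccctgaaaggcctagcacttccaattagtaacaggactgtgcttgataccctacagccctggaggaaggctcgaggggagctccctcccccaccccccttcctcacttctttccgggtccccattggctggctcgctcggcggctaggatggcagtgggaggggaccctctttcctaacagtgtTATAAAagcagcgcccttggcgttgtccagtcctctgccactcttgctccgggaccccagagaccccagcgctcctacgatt
Rpl34: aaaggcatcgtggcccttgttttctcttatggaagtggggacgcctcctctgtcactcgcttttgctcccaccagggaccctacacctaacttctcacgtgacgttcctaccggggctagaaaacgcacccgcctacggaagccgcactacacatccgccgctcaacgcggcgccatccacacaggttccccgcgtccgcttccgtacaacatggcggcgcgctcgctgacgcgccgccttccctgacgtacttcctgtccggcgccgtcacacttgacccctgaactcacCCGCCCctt

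Matrix genes followed the contractile ones. Of 45 extracellular matrix genes, 30 passed the floor, 27 of these (90.0%, against 17.7% of all genes) were at least 2-fold higher after removal and none lower. Their median level during DRB was 1.83 TPM, so many passed the floor only through the removal library. The median log2 ratio was 1.55, or 1.13 without the floor. Their summed level went from 92.5 TPM during DRB to 443 TPM, with 434 TPM in Adeno-Cre cells and 1573 TPM in untreated cells. The sum after removal was thus near that of Adeno-Cre cells, which was itself below that of untreated cells. This nearness rests on 1 gene, Loxl2, whose values are given below. The median span of the matrix genes was at least 38.2 kb, and their median ratio was 0.98 above those of their own length classes.

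Col3a1 (collagen III) was at 29.5 TPM in Adeno-Cre cells, 2.97 during DRB and 34.5 after removal, a ratio of 11.6 (9.93 to 13.7). Fn1 (fibronectin) was at 28.6, 3.40 and 36.6 TPM, with a ratio of 10.8 (9.63 to 12.1). Thbs1 (thrombospondin 1) was at 96.0, 14.5 and 129 TPM, with 559 TPM in untreated cells. Tnc (tenascin C) went past its Adeno-Cre level of 11.3 TPM, from 2.74 to 21.7 TPM. Members that hardly differed were Mmp2 at 1.88 and 2.02 TPM and Mmp14 at 15.01 and 16.3 TPM, both matrix metalloproteinases. The lysyl oxidase relative Loxl2 was at 74.8 TPM in Adeno-Cre cells, 1.48 during DRB and 5.00 after removal. It is 1 of 41 genes that were high in the pooled Adeno-Cre column and at least 8-fold lower in both single libraries, so its distance from that column is uncertain. Without it the matrix sum was 359 TPM in Adeno-Cre cells, 91.1 during DRB and 438 after removal, which is above the Adeno-Cre level.

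Of the 11 fibroblast markers above the floor, which overlap with the matrix list, 9 (81.8%, against 17.7% of all genes) were at least 2-fold higher. Their median was 2.21, or 1.88 without the floor. Postn and Thy1 were below 2 TPM during DRB and passed the floor only through the removal library. Vim, the intermediate filament vimentin, was at 59.5 TPM in Adeno-Cre cells, 5.08 during DRB and 48.9 after removal. S100a4, a calcium-binding protein gene, overshot, at 27.9, 6.02 and 59.5 TPM. Pdgfrb, a growth factor receptor gene, differed least, from 2.15 to 4.13 TPM.

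**Figure D3:**
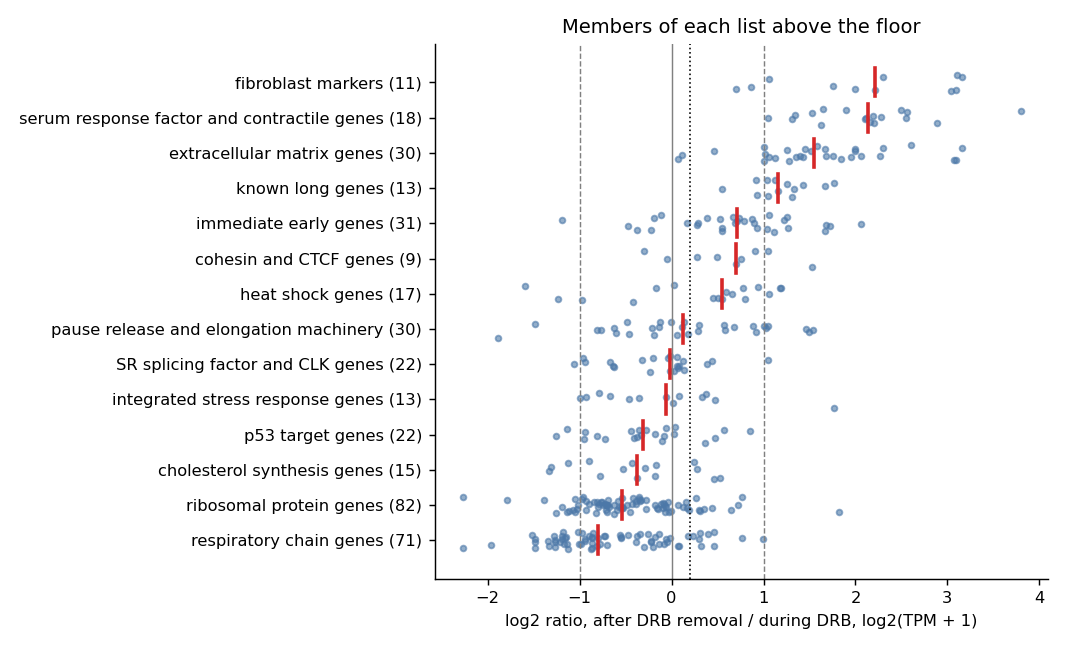
Log2 ratio of TPM + 1 after removal against during DRB for each list member above the floor (points, jittered vertically), with the list median in red, dashed lines at 2-fold and a dotted line at the median of all genes, 0.20. Numbers in brackets count members; contractile genes all lie beyond 2-fold on the right, and respiratory chain and ribosomal protein genes lie mostly left of 0.

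The remaining genes among the 15 highest ratios included small ones with few reads during DRB. Csrp1, a LIM domain protein gene, went from 2.29 to 19.6 TPM, and Ppp1r10, a regulatory subunit gene of protein phosphatase 1, from 5.40 to 41.1 TPM, with 49.8 TPM in Adeno-Cre cells. Acta1 went from 3.16 TPM (at least 13 reads) to 35.3 TPM, with 15.8 TPM in Adeno-Cre cells. Prkcdbp, a caveolae component, rested on at least 2 reads during DRB and had 1.82 and 23.5 TPM, a ratio of 12.9 whose interval ran from 3.48 to 108. Hspb6, a small heat shock protein gene, rested on at least 3 reads and had 2.02 and 17.2 TPM. Amigo3 rested on at least 1 read, with 0.284 TPM against 11.2 TPM. Whether counting used strand is not given in the sources used here, and reads of an overlapping gene cannot be told apart from its own.

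**Figure D4:**
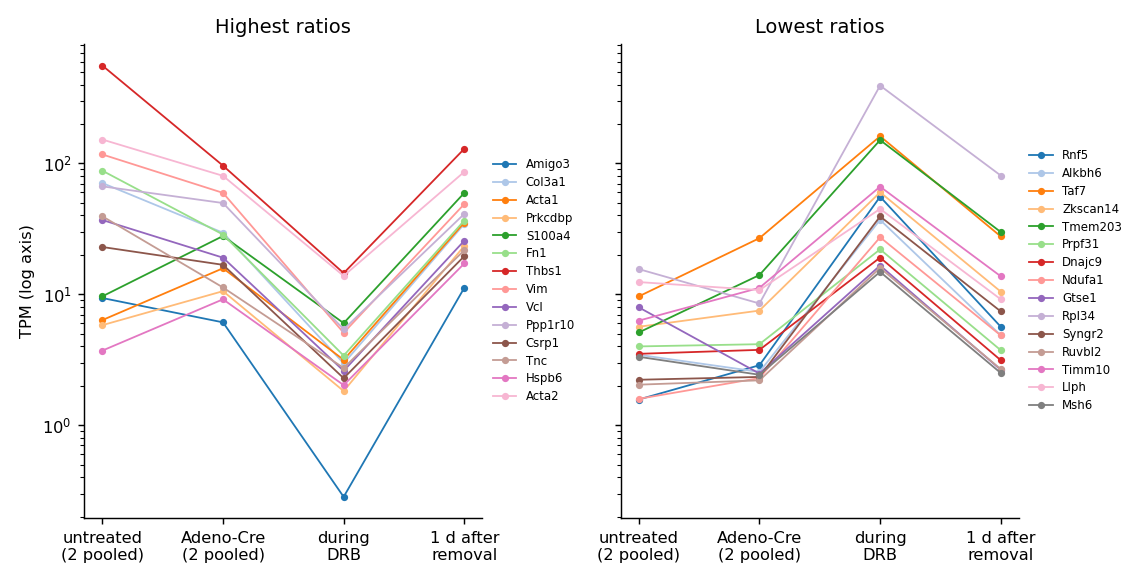
TPM on a log axis in the 4 columns for 14 of the 15 genes with the highest (left) and the 15 with the lowest (right) ratio after removal against during DRB, lines joining the values of a gene. The left genes dip during DRB, Vim to 5.08 TPM, and the right genes peak there, Rpl34 at 393 TPM.

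The DRB library enters the ratio to Adeno-Cre cells and the ratio to the removal library, so a gene high in it by chance is set apart in both. The 15 genes of the lowest ratios, which all stood above their Adeno-Cre level during DRB, had spans of 0.914 to 16.9 kb and at least 113 reads during DRB. Rnf5, a ubiquitin ligase gene, had 2.87 TPM in Adeno-Cre cells, 55.6 during DRB and 5.65 after removal, a ratio of 0.102 (0.0773 to 0.132). Taf7, an intronless gene for a subunit of the general transcription factor TFIID, had 26.8, 161 and 27.7 TPM. Tmem203, a short membrane protein gene, had 14.0, 151 and 29.9 TPM. Alkbh6, a dioxygenase family gene, had 2.55, 37.0 and 4.86 TPM.

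Prpf31, a spliceosome component, returned fully, with 4.16 TPM in Adeno-Cre cells, 22.0 during DRB and 3.74 after removal. So did Msh6, a mismatch repair gene, with 2.43, 14.8 and 2.50 TPM, and Dnajc9, a histone chaperone gene, with 3.76, 19.1 and 3.14 TPM. Gtse1, Ruvbl2, Llph and Timm10 ended between 2.65 and 13.7 TPM after 15.9 to 66.4 TPM during DRB. Zkscan14, Ndufa1 and Syngr2 fell short of a full return: Syngr2 had 2.34, 39.3 and 7.40 TPM.

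Ribosomal protein genes, short and highly transcribed, were the largest such list. Of 82 above the floor 12 were at least 2-fold lower after removal and 1 was higher, with a median log2 ratio of -0.54. The share of 14.6% that were lower compares with 7.32% of all genes, and the 1.22% that were higher with 17.7%. Their summed level was 3382 TPM in Adeno-Cre cells, 9260 during DRB and 6322 after removal, so it lay between both. The largest drop was in Rpl34, at 8.50, 393 and 80.7 TPM, which after removal was still above its Adeno-Cre level. Rps27a, which encodes a ubiquitin fusion, had 154, 576 and 284 TPM. Rpl41, the smallest of these proteins, hardly moved, at 648 and 607 TPM. Rps4x was the only one at least 2-fold higher, from 0.841 to 5.51 TPM, on at least 4 reads during DRB. Many of these genes have near-identical processed copies, among which reads may be split.

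Nuclear genes of the mitochondrial respiratory chain were alike in direction. Of 71 above the floor, 23 (32.4%, against 7.32% of all genes) were at least 2-fold lower after removal and none was higher by that measure, against 17.7%, with a median of -0.80. The sum went from 462 TPM in Adeno-Cre cells to 1452 during DRB and 721 after removal. Ndufa1, a complex I subunit, had 2.29, 27.3 and 4.85 TPM. Uqcrfs1, the Rieske protein of complex III, had 8.86, 46.1 and 15.5 TPM, and Cox6c of complex IV had 4.20, 29.2 and 9.81 TPM. Ndufb4 went the other way, from 1.92 to 4.82 TPM, short of 2-fold on the log2 scale used.

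Immediate early genes, short genes that serum and stress switch on within minutes and that depend on pause release, were mixed. Of 31 above the floor 10 (32.3%, against 17.7% of all genes) were at least 2-fold higher and 1 lower (3.23%, against 7.32%), with a median of 0.71. Ctgf, a matricellular protein gene, had 163 TPM in Adeno-Cre cells, 38.5 during DRB and 164 after removal. Its relative Cyr61 had 97.0, 55.7 and 131 TPM. Dusp1, a phosphatase gene for MAP kinases, had 144, 53.04 and 171 TPM, and Zfp36, an mRNA decay factor, 36.0, 13.6 and 47.1 TPM. Genes of the Fos and Jun families, which encode the AP-1 factor, lay on both sides of no difference, and of them only Fosl1 passed 2-fold. Fosl1 had 9.01 TPM during DRB and 3.38 TPM after removal, Fos 38.1 and 27.1 TPM, Jun 46.4 and 40.6 TPM, and Junb 47.4 and 40.5 TPM. Higher after removal were Fosl2 at 11.7 and 20.8 TPM, Fosb at 7.55 and 11.3 TPM, and Jund at 16.5 and 21.9 TPM.

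The machinery that DRB acts on differed about as often as all genes. Of 30 pause release and elongation genes above the floor 6 (20.0%, against 17.7% of all genes) were at least 2-fold higher and 2 (6.67%, against 7.32%) lower, with a median of 0.13 that turned negative (-0.33) under the median-of-ratios scaling. The higher ones included Cdk13, Aff1, Cdc73, Hexim1 and Hexim2. Cdk13, a polymerase II kinase gene of at least 89.1 kb, had 3.91 TPM in Adeno-Cre cells, 0.987 during DRB and 4.77 after removal. Cdc73 of the PAF complex had 3.13, 0.455 and 3.02 TPM. Hexim1, the short and intronless gene of the P-TEFb inhibitor, had 12.7, 4.88 and 11.01 TPM. The lower ones were Supt4h1, a subunit of the pausing factor DSIF, at 6.91, 70.4 and 18.3 TPM, and Rdbp, a subunit of NELF, at 2.48, 8.56 and 2.41 TPM. Of 9 cohesin and CTCF genes above the floor, Stag1 (0.682 to 3.85 TPM) and Pds5a (0.899 to 2.92 TPM) were at least 2-fold higher. That was 22.2%, against 17.7% of all genes, and none was lower. The list median was 0.70, or 0.45 without the floor. Their median span was at least 46.4 kb, and their median difference from their own length classes was only 0.002.

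Among stress programmes, p53 targets had a median of -0.31. Of 22 above the floor 2 were at least 2-fold lower, a share of 9.09% near the 7.32% of all genes. None was higher, against 17.7% of all genes. Bbc3, which encodes the apoptosis inducer PUMA, had 12.2 TPM in Adeno-Cre cells, 29.2 during DRB and 11.6 after removal. Mdm2, which encodes the ubiquitin ligase of p53, had 47.6, 51.7 and 26.5 TPM, while Cdkn1a, the cell cycle inhibitor p21, differed little at 66.3, 46.4 and 44.5 TPM. Heat shock genes had a median of 0.55, which was 0.09 under the median-of-ratios scaling. Of 17, 3 were higher (17.6%, near the 17.7% of all genes) and 2 lower (11.8%, against 7.32%). Hspa8, a constitutive chaperone, ended above its Adeno-Cre level of 49.3 TPM, at 52.0 TPM during DRB and 109 after removal. Dnajb1 and Hspe1 were the lower ones, at 29.0 and 11.8 TPM and at 54.6 and 17.4 TPM. Integrated stress response genes had a median of -0.06, which was 0.15 without the floor. Only Nupr1 of 13 passed 2-fold (7.69% higher, against 17.7% of all genes), from 15.6 to 55.3 TPM.

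The most abundant genes are named here with small RNAs and predicted genes left out; the small RNA Rnu11, for one, stood higher, at 2891 TPM during DRB and 4242 TPM after removal. Snhg8, a host of small nucleolar RNAs, was the highest of the named genes in both libraries, with 1842 TPM during DRB and 1913 TPM after removal, a ratio of 1.04 (0.989 to 1.09). Dpm3, a short gene for a subunit of a mannose transferase, was among the 10 highest of these genes during DRB, with 473 TPM then and 150.2 TPM after removal, against 56.4 TPM in Adeno-Cre cells. Snhg9 had 928 and 749 TPM and Gas5 303 and 399 TPM. Of 10 entries of the snoRNA host list above the floor, the 1 past 2-fold was Rnu73b, itself a small RNA, at 0 during DRB and 38.7 TPM after removal. The list median of 0.36, Rnu73b included, became -0.19 under the median-of-ratios scaling. Mt1, a metallothionein gene, had 272 TPM during DRB and 365 after removal, with 893 TPM in Adeno-Cre cells. Under the same scaling the log2 ratios of Snhg8, Gas5 and Mt1 turned from 0.05, 0.40 and 0.43 to -0.50, -0.16 and -0.13, and that of Ctcf from 0.28 to -0.08.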

How the data were processed

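GRO-seq values were deposited by the authors as TPM per gene, per the file headers. The pooled untreated and Adeno-Cre columns summed to 200000 and were divided by 2.0; the single-library columns summed to 100000. Of the RPKM values deposited by the authors for polyadenylated RNA, the Adeno-Cre library of Ctcf(fl/fl) Wapl(fl/fl) cells was used. The submitters' processing notes name bedtools, HTSeq, MACS 1.4.2, Bowtie 0.12.5 and TopHat (1.4.1 and 1.3.1), with mm9 as build and no roles.

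Analysis used Python 3.11.15, numpy 2.4.6, pandas 2.3.3, scipy 1.17.1 and matplotlib 3.10.9. Ratios are on log2(TPM + 1), with a floor of 2 TPM in at least 1 column; the highest entry of a repeated symbol was kept. TPM ratios between the libraries were whole-number ratios times 1 constant within the 8 decimals of the file. Reads and spans, as lower bounds, were so recovered for 13670 of 15871 genes above 0 in both (86.1%), and for 97.3% of genes above the floor. The recovery was tested on simulated data. Intervals are exact conditional binomial (Clopper-Pearson) intervals on recovered reads.

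The members and lists were chosen with earlier results of these data known. Named genes are Ctcf and Wapal, the 15 highest and 15 lowest ratios at a TPM of at least 10 without predicted genes, small RNAs or antisense transcripts, the 10 most abundant in each library with the same exclusions, and extremes of the 28 lists. Some genes that the rule selected are not reported here; counts and list values include them. Alternatives were other pseudocounts, floors, scalings and read minimums. No column of unmapped samples was present (0).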

Additional observations from a re-analysis of the deposited data

How the results depend on the processing

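No paired analysis was possible because each condition had 1 library and the labels give it no clone; for the same reason no replicate could be left out. The main counts after removal against during DRB were 1360 higher and 563 lower, with a median of 0.20. A pseudocount of 0.1 gave 2053 higher, and a pseudocount of 5 gave 247 higher and 252 lower. A floor of 10 TPM gave 272 higher, 436 lower and a median of -0.37, so the lower genes were then the more numerous. The median-of-ratios scaling gave 486 higher, 1385 lower and a median of -0.41. During DRB against Adeno-Cre cells, a pseudocount of 5 gave 709 higher and 432 lower, the floor of 10 gave 346 lower, and the median-of-ratios scaling gave 3200 higher and 853 lower. After removal against Adeno-Cre cells, a pseudocount of 5 gave 191 higher and 218 lower, and the floor of 10 gave 301 higher and 173 lower. The longest of 4 length classes had a median of 0.95 with a pseudocount of 0.1 and 1.10 with the floor of 10, and the shortest had -0.34 with that floor. The causes were not tested. An alternative chosen after seeing the data, at least 30 recovered reads in both libraries together, left 1159 higher and 530 lower. The sign was the same in every alternative run for 14 of 24 list medians and for 39 of 46 named genes; the contractile, matrix, fibroblast, long-gene, immediate early, ribosomal protein and respiratory chain medians were among those that kept it. Depth limits the DRB library most, where 4198 genes were at 0 against 2290 after removal.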

Other observations

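Replication-dependent histone genes, which encode the histones made in S phase and give mRNA without a poly(A) tail, were summed in each column. Of 56 above the floor 16 (28.6%, against 17.7% of all genes) were at least 2-fold higher after removal than during DRB. Only 1 was lower (1.79%, against 7.32%). The median log2 ratio was 0.65, and 0.09 under the median-of-ratios scaling. Their sum was 17366 TPM in Adeno-Cre cells, 4820 during DRB and 6939 after removal, with 7266 TPM in untreated cells. Without the 15 members that were at least 8-fold lower in both single libraries than in the pooled column, the sums were 13416 TPM in Adeno-Cre cells, 4704 during DRB and 6754 after removal. Hist1h4c had 3058, 922 and 1173 TPM in the same order, and Hist1h1e had 140, 12.3 and 51.2 TPM. Histone genes have near-identical copies, so values of single members, and the sums in the pooled columns, are uncertain. The log2 ratio of Hist1h4c after removal against during DRB, 0.35, turned to -0.21 under the median-of-ratios scaling.

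Cholesterol synthesis genes had a median of -0.38, with 3 of 15 (20.0%, against 7.32% of all genes) at least 2-fold lower after removal. Fdps, a prenyl diphosphate synthase gene, had 1.23 TPM in Adeno-Cre cells, 6.97 during DRB and 2.17 after removal, and Idi1, an isomerase gene of the same pathway, had 2.78, 7.75 and 2.53 TPM. Of 8 cell cycle genes above the floor, the replication genes Mcm7 (36.0 to 11.9 TPM) and Rrm2 (9.42 to 3.29 TPM) were at least 2-fold lower and none was higher, with a median of -0.29 whose sign turned in 1 of 7 alternatives. Of 22 splicing factor and CLK kinase genes, Srsf5 was lower (92.5 to 44.0 TPM) and Rbm39 higher (8.63 to 19.0 TPM). Each was 4.55% of the list, against 7.32% of all genes lower and 17.7% higher, and the median was -0.02.

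For the lists that follow, the shares of all genes were 17.7% higher and 7.32% lower. Inflammatory genes under NF-kB had a median of 0.47, with 3 of 16 higher (18.8%, near that of all genes) and none lower. Ptgs2, an inducible prostaglandin synthase gene, went from 4.57 to 14.7 TPM. Of 15 interferon response genes 2 were higher and 2 lower (13.3% each), with a median of 0.20. Isg15, a ubiquitin-like modifier gene, went from 3.10 to 13.4 TPM, and Tap1, a peptide transporter gene, from 12.2 to 2.08 TPM. Of 37 short coding genes with few introns, 7 were higher (18.9%, near that of all genes) and none lower, with a median of 0.39. Replacement histone genes had a median of 0.03 (2 of 8 higher, 1 lower) and small structured RNAs one of 0.32 (1 of 8 higher, Rnu73b, at 0 during DRB). None of 9 circadian clock genes passed 2-fold, with a median of -0.32. The medians of these 6 lists changed sign in at least 1 alternative.

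Some genes above their Adeno-Cre level during DRB were still above it after removal; these were picked after their values were seen. Arl4d, a small GTPase gene, had 7.07 TPM in Adeno-Cre cells, 51.6 during DRB and 46.2 after removal, and the Polycomb gene Cbx8 had 2.08, 11.3 and 18.2 TPM.

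The pooled Adeno-Cre column also held genes that were far lower in both single-library columns. For 41 genes of at least 20 TPM in Adeno-Cre cells, both single libraries were at least 8-fold lower. They took 12.3% of the Adeno-Cre TPM, 0.302% during DRB and 0.455% after removal. Of these 15 were replication-dependent histone genes, 13 predicted genes or pseudogenes and 2 small RNAs. They also included Loxl2, the germ cell gene Tex14 (97.8 TPM in Adeno-Cre cells, 2.65 during DRB and 8.76 after removal) and the small heat shock protein gene Hspb1 (115, 4.38 and 11.2 TPM). How reads with several matches were handled in each column is not given in the sources used here, and its part in comparisons with the pooled columns was not tested.

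Small RNA genes, such as those of microRNAs and small nucleolar RNAs, moved with low counts. Of 196 above the floor 117 were at least 2-fold higher after removal and 18 lower, where 17.7% and 7.32% of all genes were. However, 96 were at 0 during DRB, and the others had a median of at least 3 reads there.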
